A study of Homo sapiens with 12 samples.

Results

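Intermediate filaments are the third filament system of the cell, beside actin and microtubules, and 8 genes of this family were followed here in human neuroblastoma cells. They are vimentin (VIM), the keratins KRT8, KRT18, KRT19 and KRT80, nestin (NES), synemin (SYNM) and lamin A/C (LMNA). The 8 were taken by symbol, as the rows of the deposited table whose Ensembl identifiers carry these names, out of 61552 genes in the table, and all 8 were found and passed the filter on low counts. The rows were matched by symbol and not by a measured value, but the genes were chosen with earlier results of these data known.

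The series asks how neuroblastoma cells respond to blocking GPX4, the enzyme that reduces lipid peroxides in membranes and so holds back ferroptosis, a form of cell death that depends on iron. SK-N-AS, a line the series calls MYCN-nonamplified, and SK-N-BE(2), a line it calls MYCN-amplified, were cultured overnight with the GPX4 inhibitor ML210 or as a control, and mRNA was sequenced. This gave 4 groups of 3 libraries, the control and the ML210 group of either line, all labelled WT in genotype. Replicate numbers are also the batch numbers in the labels. The effect of MYCN status cannot be told apart from that of the line, with 1 line of each kind, and no label beyond the batch says that replicates were separate cultures, so p-values measure the spread between these libraries only.

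The line labels went against MYCN in all 12 libraries. MYCN lay between 3458 and 3933 CPM (counts of a gene scaled to a common library total) in the 6 libraries labelled SK-N-AS and between 0.0608 and 0.24 CPM in the 6 labelled SK-N-BE(2), which is 4 to 17 reads a library. The lines are therefore called by their labels throughout, and every direction between them holds for the labels and not for the lines. Library totals lay between 54047293 and 83481963 counted reads. Of 6 genes that define sympathetic neuroblastoma cells, PHOX2A, HAND2, GATA3 and ISL1 were never below 31 CPM. Those for catecholamine synthesis were not: TH was at 242 to 308 CPM in libraries labelled SK-N-AS and at most 0.607 CPM under the other label, and DBH was at 535 to 636 CPM against 3.17 to 7.76 CPM. PHOX2A (498 to 613 against 61.7 to 140 CPM), GATA3 (232 to 323 against 142 to 185 CPM) and ISL1 (96.7 to 116 against 31 to 42.7 CPM) were also higher in the label SK-N-AS. The HAND2 ranges overlapped.

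Libraries labelled SK-N-AS of batches 2 and 3 stood apart from batch 1 in 1 respect that touches the keratins. Outside the 8 genes, 40 genes reached 50 CPM in all libraries labelled SK-N-BE(2) and stayed below 3% of their mean there in all those labelled SK-N-AS. Relative to the mean level labelled SK-N-BE(2), the median of these trace genes was 0.289% in SK-N-AS control 1 and 0.328% in SK-N-AS ML210 1. It was 1.69% and 1.46% in controls 2 and 3, and 1.19% and 1.71% in ML210 2 and 3. What put these reads there was not tested. The 3% limit fixes the top of the range of these genes, so a place inside or above that range is a description and no test. For all of the 8 genes but LMNA, and for some listed genes at such low levels, values with batch 1 alone for that label are given as well. These fits hold 1 control library of that label, which is assumed to vary like the other groups, and are not paired by batch.

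Intermediate filament proteins share a coiled rod of alpha helix that pairs lengthwise, and the ends of that rod are the most alike between family members. Keratins are obligate partners, an acidic type I chain (KRT18, KRT19) with a basic type II chain (KRT8, KRT80), and KRT8 with KRT18 is the keratin pair of simple epithelia. Vimentin is the type III chain of mesenchymal cells and of many cultured cells, nestin marks neural progenitors and builds filaments together with vimentin, and synemin links such filaments to other structures. Lamin A/C forms the lamina under the nuclear membrane together with the B-type lamins, and its share is known to rise in stiff tissues and differentiated cells.

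The coding bases of the rod end show how far genes of the family still share sequence. They are printed for the type I keratins KRT18 and KRT19 and for NES and SYNM, from the principal GENCODE release 29 transcripts (GRCh38). Capitals mark the codons that matched a pattern of tyrosine, a basic residue, leucine and an acidic residue in the spacing of that end, and in KRT80 the pattern was not found.
KRT18: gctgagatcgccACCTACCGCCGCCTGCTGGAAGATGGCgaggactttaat
KRT19: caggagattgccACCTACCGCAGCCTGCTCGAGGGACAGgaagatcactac
NES: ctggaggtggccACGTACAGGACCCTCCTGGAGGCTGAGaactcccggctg
SYNM: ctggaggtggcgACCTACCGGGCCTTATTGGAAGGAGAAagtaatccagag
Of these 51 bases, KRT18 held the same base as KRT19 at 32 and the same as NES at 26, and SYNM the same as NES at 31 and the same as KRT18 at 25. KRT19 held the same base as NES at 29. KRT18 was thus nearer to KRT19 than to NES or SYNM, and NES was nearer to SYNM than to either keratin. For NES the margin over KRT19 was small, at 31 against 29.

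On GRCh38, with the coordinates of GENCODE release 29, VIM lies at chr10:17228259-17237593 on the plus strand and NES at chr1:156668763-156677397 on the minus strand. SYNM lies at chr15:99098217-99135593 and LMNA at chr1:156082573-156140089, both on the plus strand. KRT8 (chr12:52897187-52949954, minus strand) and KRT18 (chr12:52948871-52952901, plus strand) are neighbours whose annotated spans overlap on opposite strands, KRT80 lies on the same chromosome (chr12:52168996-52192000, minus strand) and KRT19 on another (chr17:41523617-41528308, minus strand). Values are gene totals over exons. The strand setting of the counting is not given in the sources used here, so reads in the shared stretch of KRT8 and KRT18 could fall to either. Antisense genes over VIM and SYNM took few reads, at most 0.337% of the VIM reads and 0.266% of the SYNM reads in any library, and LINC00592, opposite KRT80, held 2.14% of the KRT80 reads over all libraries.

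Between the controls, 6 of the 8 genes were higher and 1 was lower in the libraries labelled SK-N-BE(2), and the other one, SYNM, was not called. Vimentin and nestin were higher by nearly equal amounts, KRT8, KRT18 and KRT80 by far more, lamin A/C by less, and KRT19 was the gene lower there. Calls here mean an adjusted p under 0.05 in edgeR's quasi-likelihood test, adjusted over the 20304 genes that entered it. The labels differed throughout the transcriptome: 69.2% of all tested genes were called between the controls, 33.9% as higher and 35.2% as lower in the label SK-N-BE(2). A call is therefore common between these labels, and the counts of 6 and 1 are a description of the 8 genes. Their median log2 difference was 2.38, beside -0.01 over all tested genes. Scaling by library totals in place of TMM (trimmed mean of M values) shifted that median over all genes to 0.24 and the share of higher among called genes from 49.1% to 60.7%. Under it 69.6% of genes were called and so were all 8 genes, 7 as higher. In a bulk library, fewer cells with a transcript and less of it in each cell cannot be told apart.

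**Figure D1:**
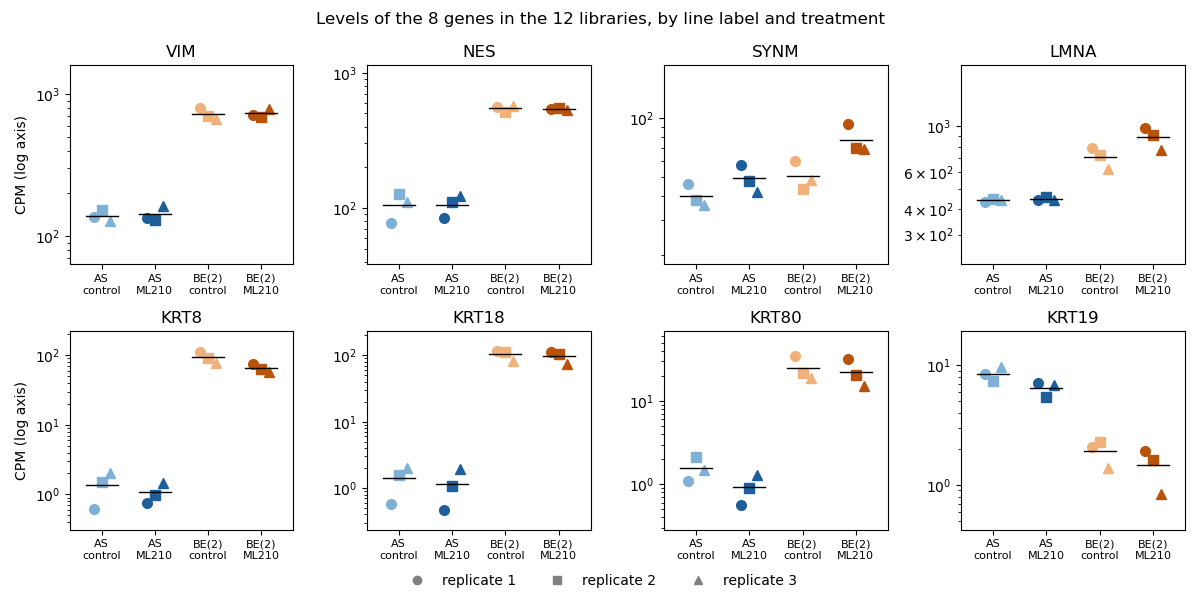
Levels of the 8 genes in CPM (log axis, a separate range for each gene) in the 12 libraries, grouped by line label and treatment. Symbols are replicates (equal to batches) and bars are group means. VIM, NES, KRT8, KRT18 and KRT80 lie higher and KRT19 lower in every library labelled SK-N-BE(2), whereas the SYNM ranges overlap between the controls.

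Vimentin was at 135, 152 and 127 CPM in the control libraries 1, 2 and 3 labelled SK-N-AS, and at 796, 703 and 664 CPM under the label SK-N-BE(2). No library of one label reached the range of the other. The log2 difference was 2.39 (SE 0.103, adjusted p = 2.09e-10 in edgeR). Nestin was at 76.7, 127 and 109.7 CPM labelled SK-N-AS and at 555, 510.1 and 567 CPM labelled SK-N-BE(2). Its log2 difference was 2.38 (SE 0.18, adjusted p = 5.25e-07 in edgeR), and batch 1 was the lowest of the SK-N-AS controls. With batch 1 alone for that label the log2 difference was 2.41 for VIM and 2.83 for NES. Both genes lay far above the trace genes in the label SK-N-AS, at 17.5% to 22.4% of the level labelled SK-N-BE(2) for VIM and 14.1% to 23.4% for NES.

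Reads of VIM per read of NES stayed in a narrow span, from 1.15 to 1.77 over all 12 libraries, and the ranges of the 4 groups overlapped. By pattern over the 12 libraries, the rest of the transcriptome still held closer companions. The likeness measure was the root mean square difference of centred log2 CPM. FAM210B (0.0966), ALDH6A1 (0.104) and TMEM87B (0.118) were most like VIM, and SCN9A (0.0943), CEP112 (0.125) and RGL1 (0.132) most like NES. NES ranked 48th for VIM and VIM 35th for NES, at 0.184. Such likeness is mostly the difference between labels, since 3023 genes correlated with VIM and 2982 with NES at a Pearson r over 0.95 across these 12 libraries, which share batches and line labels.

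Because VIM and NES differed alike, the 250 bases before their RefSeq starts (GRCh38.p14) are shown, with GC boxes (GGGCGG on either strand) in capitals. The RefSeq table held entries for 5 of the 8 genes and none for KRT18, KRT19 and KRT80.
VIM, chr10:17227991-17228240, plus strand: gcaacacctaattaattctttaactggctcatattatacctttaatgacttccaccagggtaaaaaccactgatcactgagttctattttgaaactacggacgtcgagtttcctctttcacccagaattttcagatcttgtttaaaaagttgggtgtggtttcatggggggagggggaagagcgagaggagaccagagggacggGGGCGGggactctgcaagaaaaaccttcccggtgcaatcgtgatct
NES, chr1:156677408-156677657, minus strand: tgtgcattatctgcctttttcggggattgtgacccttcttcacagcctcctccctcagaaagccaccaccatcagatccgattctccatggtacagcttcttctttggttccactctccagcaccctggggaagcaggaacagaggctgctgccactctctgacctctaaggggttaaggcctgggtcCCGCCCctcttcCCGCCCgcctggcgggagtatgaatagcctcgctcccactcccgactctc
The VIM stretch held 1 GC box at 46.0% G and C, and the NES stretch held 2 at 58.0%. Of all 35116 promoters of that length in the table, 42.6% held a GC box. SYNM held 4, LMNA 1, 1 and 2 at its 3 starts, and KRT8 none. The AP-1 letters TGANTCA were found in none of these 7 stretches and in 6.57% of all promoters. The E-box letters CACGTG were likewise in none and in 6.34% of all promoters. Those of the TATA box, TATAAA, were in none and in 10.7% of all promoters. Each motif was searched on both strands, and 2 of the 4 SYNM GC boxes overlap each other. These are matches of letters and say nothing about binding.

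Synemin, the linker, was the gene with overlapping ranges between the controls: 46.1, 38.2 and 35.7 CPM labelled SK-N-AS against 60.5, 43.1 and 48 CPM labelled SK-N-BE(2). In every batch the library labelled SK-N-BE(2) was the higher, by 0.39, 0.17 and 0.43 on the log2 scale. The log2 difference was 0.34 (SE 0.169, adjusted p = 0.0981 in edgeR). With the replicate block, set within each line label, it was 0.33 with an adjusted p = 0.000121 in edgeR, where 71.7% of all genes were called. That fit takes batch differences within a label out of the spread. It does not pair the labels by batch, so it is no test of the same-batch differences. Scaling by library totals gave 0.58 (adjusted p = 0.00965), and DESeq2 gave an adjusted p = 0.0412 where it called 69.8% of genes. Set against the controls of all 3 batches labelled SK-N-BE(2), the SK-N-AS control of batch 1 alone gave 0.13, whereas its same-batch difference was 0.39.

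Lamin A/C differed by less but held tightly within the label SK-N-AS, at 431, 445 and 440.3 CPM in the controls, against 783, 730.5 and 619.7 CPM labelled SK-N-BE(2). The ranges did not overlap. The log2 difference was 0.70 (SE 0.0905, adjusted p = 9.87e-06 in edgeR), and 0.94 with library totals as the scale. The B-type lamins, which build the same lamina, did not pass the test: LMNB1 differed by 0.07 (adjusted p = 0.304) and LMNB2 by 0.10 (adjusted p = 0.169) in edgeR. Reads of LMNA per read of LMNB1 were accordingly 1.78, 1.90 and 1.94 in the SK-N-AS controls and 3.03, 3.08 and 2.52 in the SK-N-BE(2) controls, a ratio that no library scaling touches. Among the genes most like LMNA in pattern over the 12 libraries were SLC15A4 (root mean square 0.0715) and ANXA2 (0.0791).

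Among the keratins, KRT8 was at 0.624, 1.49 and 2.04 CPM in the SK-N-AS controls and at 112, 90.3 and 76.3 CPM in the SK-N-BE(2) controls, with 270 reads in all in the first group and 18886 in the second. KRT18, its type I partner, was at 0.572, 1.59 and 2.04 CPM against 117, 113 and 82.5 CPM. The log2 differences were 6.09 (SE 0.368, adjusted p = 1.81e-07) for KRT8 and 6.25 (SE 0.484, adjusted p = 2.11e-06) for KRT18 in edgeR. KRT80, a type II keratin, was at 1.11, 2.10 and 1.5 CPM against 34.7, 21.5 and 18.6 CPM, a log2 difference of 4.00 (SE 0.401, adjusted p = 6.33e-06 in edgeR).

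The size of the KRT8 and KRT18 differences was set by how low they were in the label SK-N-AS, where both were at the level of the trace genes. KRT8 there was 0.793%, 1.89% and 2.59% of the mean level labelled SK-N-BE(2) in control libraries, and with ML210 it was 0.949%, 1.27% and 1.88%. KRT18 was 0.566%, 1.57% and 2.02% in control libraries, and with ML210 0.467%, 1.06% and 1.91%. In all 6 libraries both values lay inside the range of the 40 trace genes, the top of which is set by the rule that selected them. Whether any of these reads came from cells of the label SK-N-AS was not tested. With batch 1 alone for that label, the log2 difference was 7.21 for KRT8, 7.50 for KRT18 and 4.49 for KRT80. KRT80 was above the range of the trace genes in 5 of the 6 libraries, at 2.41% to 8.86%, the exception being ML210 1.

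**Figure D2:**
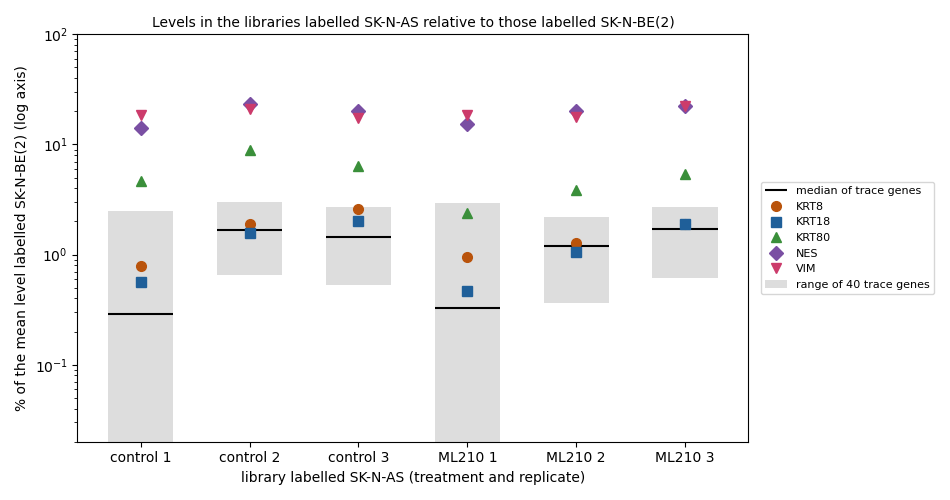
Level in each of the 6 libraries labelled SK-N-AS as a percentage of the mean level labelled SK-N-BE(2) (log axis, cut at the bottom where trace genes were at 0). Grey bars span the 40 trace genes, black lines are their medians, and symbols are VIM, NES, KRT80, KRT18 and KRT8. KRT8 and KRT18 lie within the grey bars in every library, VIM and NES lie far above them at 14.1% to 23.4%.

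KRT19, the type I keratin with a short tail, ran the other way, at 8.47, 7.34 and 9.69 CPM in the SK-N-AS controls and 2.09, 2.30 and 1.38 CPM in the SK-N-BE(2) controls. The log2 difference was -2.14 (SE 0.266, adjusted p = 6.33e-06 in edgeR) and -2.14 also with batch 1 alone. KRT19 labelled SK-N-BE(2), at 11.3% to 30.8% of its level under the other label, was above the traces of 69 genes chosen the opposite way. Their medians were 0.256% to 0.525% of their level labelled SK-N-AS in the 6 libraries, and the top of their range is likewise set by the rule. SGK1 (0.288), PTGER1 (0.306) and PER2 (0.307) were most like it in root mean square over the 12 libraries. For KRT8 these were GAS1 (0.251), FBLN2 (0.315) and STK26 (0.322), with KRT18 ranked 10th at 0.345. For KRT18 they were MVP (0.232), PTPN14 (0.237) and ST3GAL1 (0.25), with KRT8 ranked 13th.

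Copies of KRT8 and KRT18 limit the low values further. The annotation names 51 KRT8 and 67 KRT18 pseudogenes, and 29 and 42 of them had reads. In the label SK-N-AS the KRT8 copies took 1994 reads over the 6 libraries, more than the 469 of KRT8 itself, and in the label SK-N-BE(2) they took 4822 beside 31754. KRT8P12, a processed copy on chromosome 3, held most of them, 1592 and 3352 reads. It was at 3.71 to 4.45 CPM labelled SK-N-AS and 6.92 to 9.66 CPM labelled SK-N-BE(2). The KRT18 copies took 45.5% to 189% of the KRT18 reads in a library labelled SK-N-AS and 1.66% to 3.17% in one labelled SK-N-BE(2). How reads that match several genes were counted is not given in the sources used here, so the split between gene and copy is uncertain. With the reads of the copies added to the parent gene, the log2 difference between the controls was 4.03 for KRT8 and 5.45 for KRT18.

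Levels can be compared between genes only per length of transcript, as the CPM value per kilobase of the principal transcript (RPKM). In the SK-N-BE(2) controls the order was VIM at 338 ± 31.8 (SD, n = 3), LMNA at 223 ± 26.1, NES at 97.9 ± 5.44, KRT18 at 66.7 ± 12.1 and KRT8 at 43.6 ± 8.34 RPKM. SYNM at 6.83 ± 1.21, KRT80 at 6.46 ± 2.22 and KRT19 at 1.39 ± 0.348 RPKM followed, and SYNM and KRT80 did not differ beyond their spread. In the SK-N-AS controls LMNA led at 138 ± 2.2 RPKM (SD, n = 3), before VIM at 64.6 ± 6.02 and NES at 18.8 ± 4.57. KRT19 at 6.11 ± 0.845 and SYNM at 5.41 ± 0.733 RPKM came next and overlapped in spread. KRT18 (0.896 ± 0.481), KRT8 (0.651 ± 0.335) and KRT80 (0.406 ± 0.13) were lowest, without an order beyond their spread. KRT19 was thus the most abundant of the 4 keratins in the label SK-N-AS and the least abundant in the label SK-N-BE(2). Taking the length of all annotated exons in place of the principal transcript put SYNM (5.12) before KRT19 (3.64) and KRT80 (0.36) before KRT8 (0.201) in the SK-N-AS controls and left the order labelled SK-N-BE(2) as it was.

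The other intermediate filament genes went in both directions between the controls. Of 8 other type III and type IV genes, all tested, 2 were higher and 6 lower in the label SK-N-BE(2). The shares over all genes were 33.9% and 35.2%, and the median log2 difference of the 8 was -2.09. The lower ones were the filament genes of neurons, with GFAP: INA, alpha-internexin, went from 309 to 15.2 CPM (-4.34, adjusted p = 4.97e-10 in edgeR), NEFH from 125 to 15.9 CPM (-2.97, adjusted p = 3.58e-09) and PRPH, peripherin, from 115 CPM to 50.03 CPM (-1.20, adjusted p = 1.05e-07). Desmin (DES) and SYNC were higher there at a mean of 1.4 CPM or less, against 0.0808 and 0.0745 CPM, and may have passed the filter only through that label. Of 20 other keratins, 5 passed the filter, with 3 higher and 0 lower, beside the same 33.9% and 35.2% of all genes. The 3 were KRT16 at 10.25 CPM against 0.209, KRT15 at 1.12 against 0.153 and KRT10 at 47.1 against 34.0 CPM. The mean of KRT16 was raised by batch 2, with SK-N-BE(2) controls 1, 2 and 3 at 7.21, 18.7 and 4.81 CPM. KRT16 was at 1.12% to 4.24% of the level labelled SK-N-BE(2) in the SK-N-AS libraries, near the trace genes, and its log2 difference was 5.63, or 6.60 with batch 1 alone. With library totals as the scale, 4 of these 5 were higher. KRT15 and KRT16 were so low in the label SK-N-AS that the count gives no direction for the list. Vimentin and nestin were thus higher in the libraries in which the neuronal filament genes were lower.

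**Figure D3:**
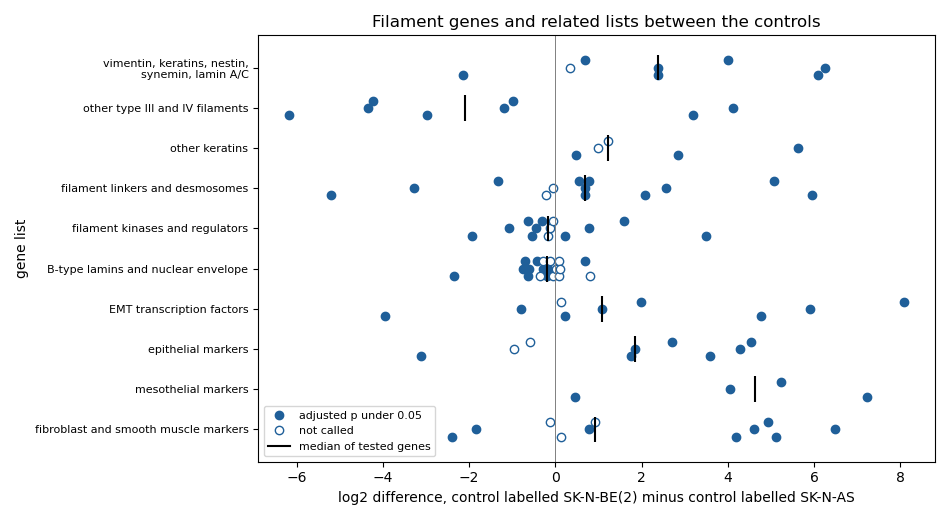
Log2 difference between the controls, label SK-N-BE(2) minus label SK-N-AS, for the 8 genes and 9 related lists. Each point is a gene that passed the filter, filled where its adjusted p was under 0.05, and black lines are medians over the tested genes of a list. Other type III and IV filaments have a median of -2.09 and the 8 genes one of 2.38.

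Of 17 genes for linkers of filaments and desmosomal proteins, 13 were tested, 8 higher and 3 lower, beside 33.9% and 35.2% of all genes. PKP3, at 0.0406 against 1.4 CPM, was low enough in the label SK-N-AS to pass the filter only through the label SK-N-BE(2), so the count gives no direction for the list. PKP2, a desmosomal plaque protein, went from 0.215 to 13.2 CPM (5.94, adjusted p = 1.31e-11 in edgeR). It was at 1.16% to 2.24% of the level labelled SK-N-BE(2) in the SK-N-AS libraries, as low as the trace genes, and the difference was 6.27 with batch 1 alone. PLEC, plectin, which ties vimentin and keratin filaments to other structures, went from 152 to 649.6 CPM (log2 difference 2.09, adjusted p = 3.48e-10), and PKP4 from 42.5 to 68.7 CPM (0.70, adjusted p = 3.57e-06). DSP, DSC2, DSC3 and DSG2, core desmosome genes, did not pass the filter on low counts. Of 19 lamina and nuclear envelope genes, 1 was higher and 9 were lower. SUN2, which links the lamina to the cytoskeleton, was at 24.15 CPM against 122 (-2.34, adjusted p = 9.48e-13 in edgeR), BANF1 at 207 against 347 CPM (-0.74) and ICMT, which methylates the lamin tail, at 92.9 against 143 CPM (-0.62). ZMPSTE24, the protease that makes mature lamin A, was the one that was higher, at 95.2 against 59.3 CPM (0.68). That split depends on the scale: with library totals 6 were higher and 5 lower.

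Of 13 kinases and regulators of filaments, 4 were higher and 6 lower (5 and 5 with library totals). AURKB was at 30.7 against 117 CPM (-1.93), PLK1 at 189.6 against 402 CPM (-1.08), both mitotic kinases that phosphorylate vimentin, and MAPKAPK2 at 187 against 62.2 CPM (1.59). Of 11 transcription factors of the epithelial to mesenchymal transition, 9 were tested, 6 higher and 2 lower (7 and 2 with library totals). For all genes the shares were 33.9% and 35.2%. FOXC2, at 2.66 against 0.1 CPM, and GRHL2, at 0.0108 against 0.181 CPM, may have passed the filter only through the label where they were high. The count thus gives no direction for this list. SNAI1 was at 42.5 against 10.7 CPM (1.99), PRRX1 at 257 against 0.985 CPM (8.09) and ZEB1 at 54.6 against 94.8 CPM (-0.80). In the SK-N-AS libraries PRRX1 was within the range of the trace genes, at 0% to 0.694% of the level labelled SK-N-BE(2) and at most 0.0117% in batch 1. Its difference depends on those reads and was 13.17 with batch 1 alone.

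Summed levels of marker genes of other cell types also differed between the labels, in both directions. The sum of 15 epithelial markers was 3.84 to 4.5 CPM over the 6 libraries labelled SK-N-AS and 51.9 to 115 CPM labelled SK-N-BE(2), with 1 and 3 of the 15 over 1 CPM in every library and CLDN4 (49.2 against 2.54 CPM in the controls) making up most of it. EPCAM was at 0.111 and 0.22 CPM in the controls, and ESRP1 and CDH3 had no read in the label SK-N-BE(2). The sum of 9 mesothelial markers was 12.7 to 17.6 against 127 to 183 CPM, led by LRRN4 (1.06 against 154 CPM in the controls, at trace level in the SK-N-AS libraries with 0.0292% to 1.34% of the level labelled SK-N-BE(2)), with no read of ITLN1 in either label. That of 12 fibroblast and smooth muscle markers was 448 to 676 against 3190 to 4330 CPM, with 7 and 9 of 12 over 1 CPM in every library and none without reads. Its members went both ways: of 11 tested, 6 were higher and 2 lower, beside 33.9% and 35.2% of all genes. THY1, the highest of them in the label SK-N-AS, was at 118 against 423 CPM (-1.84, adjusted p = 7.5e-11 in edgeR). The sum of 10 blood cell markers was 1.53 to 3.52 against 163 to 330 CPM. PTPRC made up most of the last, and MS4A1 and HBB had no read in either label. The 12 Schwann and progenitor markers went down, from 144 to 266 CPM to 45.4 to 70.3 CPM, and so did the 8 endothelial markers, from 16.9 to 44 CPM to 2.46 to 4.23 CPM. What part these cells or programmes had in the VIM, NES and keratin levels was not tested.

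With ML210 in the label SK-N-AS, none of the 8 genes was called in edgeR, none had an unadjusted p under 0.05, and DESeq2 called none. The background was low as well, with 0.0296% of all genes called. Vimentin was at 134, 130.0 and 163 CPM with ML210, nestin at 83.6, 110 and 122 CPM and lamin A/C at 441, 455 and 442 CPM, and each of these ranges overlapped that of the controls. Synemin was at 57.7, 47.9 and 41.7 CPM, higher than the control of its batch in 3 of 3 pairs by 0.32, 0.32 and 0.22 on the log2 scale, and its log2 difference was 0.29 (SE 0.169, adjusted p = 0.797 in edgeR). KRT80, at 0.571, 0.91 and 1.275 CPM, gave -0.74 (SE 0.436, adjusted p = 0.798), and KRT19, at 7.14, 5.40 and 6.84 CPM, gave -0.40 (SE 0.251, adjusted p = 0.808). Each was lower than its control in 3 of 3 pairs. KRT8 was at 0.748, 0.998 and 1.48 CPM and KRT18 at 0.472, 1.07 and 1.93 CPM, levels within the range of the trace genes. With the replicate block none was called either, against 0.187% of all genes, although 5 of the 8 had an unadjusted p under 0.05, as did 11.2% of all genes, and SYNM came nearest with an adjusted p of 0.0608.

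With ML210 in the label SK-N-BE(2), again none of the 8 was called in edgeR, against 1.37% of all genes. SYNM and LMNA, both higher, had an unadjusted p under 0.05, as did 7.12% of all genes in that direction. With the replicate block 3 were called, SYNM and LMNA as higher and KRT8 as lower, against 6.83% of all genes. The block removes differences between batches from the spread and leaves 4 residual degrees of freedom in place of 8. DESeq2 without the block called SYNM alone, against 3.63% of all genes.

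Synemin was at 93.2, 70.4 and 69.15 CPM with ML210, above all of its control libraries (60.5, 43.1 and 48 CPM). The same-batch differences were 0.62, 0.71 and 0.53 on the log2 scale. The fitted log2 difference was 0.62 (SE 0.168, adjusted p = 0.108 in edgeR), and with the replicate block 0.62 (SE 0.0535, adjusted p = 7.11e-05). DESeq2 gave an adjusted p = 0.0133.

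Lamin A/C was at 988, 910.1 and 769 CPM with ML210 against 783, 730.5 and 619.7 CPM, and the lowest ML210 library lay below the highest control. Within batches, however, the differences were nearly equal, 0.335, 0.32 and 0.31 on the log2 scale. The fitted log2 difference was 0.32 (SE 0.0901, adjusted p = 0.101 in edgeR), and with the replicate block 0.32 (SE 0.0437, adjusted p = 0.00132). Leaving out the ML210 library of batch 3 gave 0.39 with an adjusted p = 0.0141 in edgeR, a call without the block.

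KRT8 was at 73.8, 62.5 and 58.2 CPM with ML210, each below every control library (112, 90.3 and 76.3 CPM). The same-batch differences were -0.596, -0.53 and -0.39 on the log2 scale. The fitted log2 difference was -0.52 (SE 0.277, adjusted p = 0.482 in edgeR), and with the replicate block -0.51 (SE 0.0727, adjusted p = 0.00176). With the reads of its copies added it was -0.45 in the fit without the block. Its partner KRT18 was at 113.5, 105 and 75.3 CPM with ML210 against 117, 113 and 82.5 CPM, a log2 difference of -0.09 (SE 0.36, adjusted p = 0.976 in edgeR) and with the replicate block an adjusted p of 0.419.

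**Figure D4:**
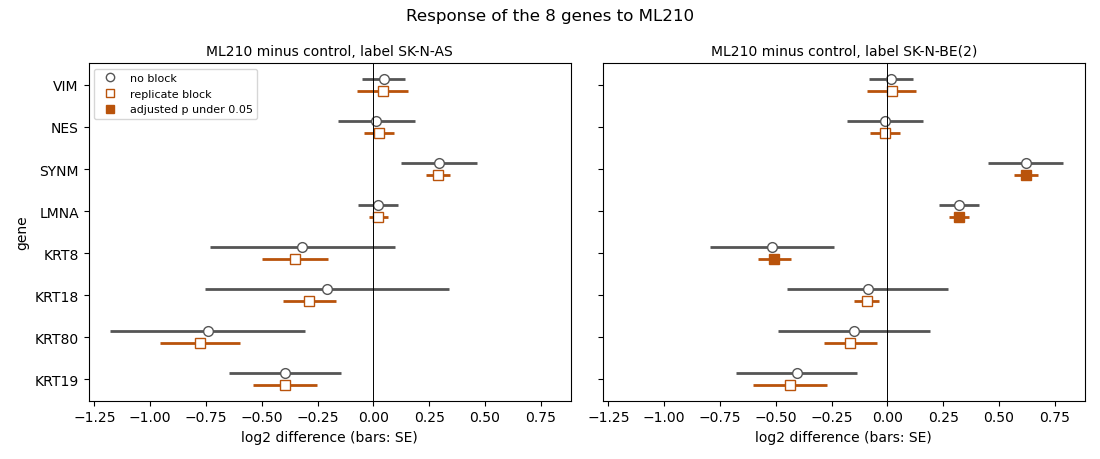
Log2 difference of ML210 minus control for the 8 genes in the libraries labelled SK-N-AS (left) and SK-N-BE(2) (right), with and without the replicate block. Bars are standard errors, and filled symbols have an adjusted p under 0.05. Filled symbols appear for SYNM, LMNA and KRT8 with the block in the label SK-N-BE(2), at 0.62, 0.32 and -0.51.

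VIM, NES, KRT80 and KRT19 passed neither test in the label SK-N-BE(2). Vimentin was at 709.5, 690.5 and 788 CPM with ML210 (log2 difference 0.02, SE 0.0974) and nestin at 542, 544 and 533 CPM (-0.01, SE 0.171). KRT80 was at 31.8, 20.5 and 15.03 CPM (-0.15, SE 0.339), following its controls batch by batch. KRT19 was at 1.91, 1.61 and 0.847 CPM and lower than its control in 3 of 3 pairs (-0.41, SE 0.272, adjusted p = 0.592 in edgeR).

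The ratios within a library do not depend on how libraries were scaled. In the label SK-N-BE(2), reads of KRT18 per read of KRT8 were 1.05, 1.25 and 1.08 in the controls. With ML210 they were 1.54, 1.68 and 1.29, higher in every batch and without overlap. With the reads of copies added they were 0.966, 1.14 and 0.953 and then 1.33, 1.46 and 1.13, which overlapped by a small margin. In the label SK-N-AS, where both genes are at trace level, the ratio went from 0.632 to 1.30 in no consistent direction. Reads of LMNA per read of LMNB1 in the label SK-N-BE(2) were higher with ML210 in every batch, going from 3.03 to 4.89, from 3.08 to 4.40 and from 2.52 to 3.30. In the label SK-N-AS they went from 1.78 to 1.95, from 1.90 to 2.17 and from 1.94 to 2.14. No test was run on the ratios, and the smallest two-sided p that an exact permutation of 3 against 3 libraries allows is 0.1.

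**Figure D5:**
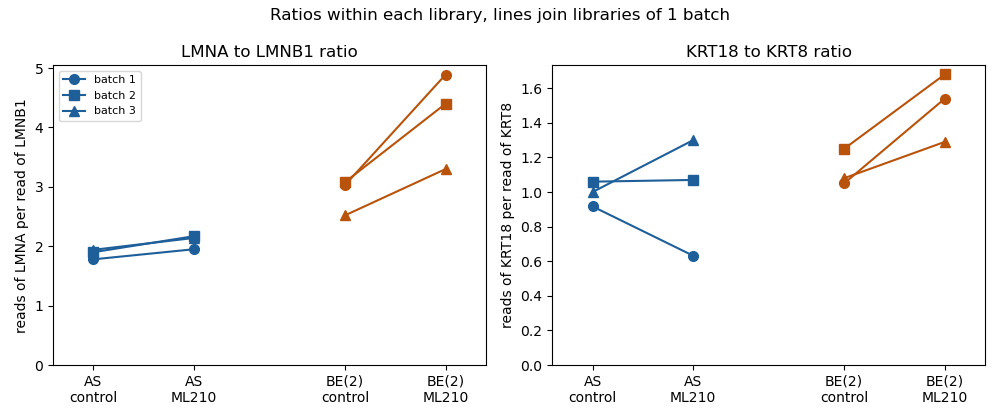
Reads of LMNA per read of LMNB1 (left) and of KRT18 per read of KRT8 (right) in each library, from 0 on a linear axis, with lines that join the control and ML210 libraries of a batch. LMNA to LMNB1 is higher with ML210 in all 6 batch pairs, and KRT18 to KRT8 in all 3 pairs labelled SK-N-BE(2).

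The response to ML210 was then compared between the labels, as the difference of both log2 differences. None of the 8 genes was called in edgeR, against 0.00493% of all genes, and DESeq2 called none. LMNA alone had an unadjusted p under 0.05 (difference 0.30, SE 0.127, adjusted p = 0.656), and SYNM gave 0.33 (SE 0.238, adjusted p = 0.823). With the replicate block the adjusted p in edgeR was 0.0622 for LMNA and 0.0842 for SYNM, against 0.419% of all genes called. It is therefore not shown for any of the 8 genes that the labels responded differently.

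Of the 154 genes in the 12 related lists, 108 passed the filter, and edgeR called none of them with ML210 in either label or in the difference of responses. At an unadjusted p under 0.05 there were 9 (8.33%) in the label SK-N-AS, 20 (18.5%) in the label SK-N-BE(2) and 7 (6.48%) in the difference, beside 6.89%, 13.5% and 7.16% of all genes. DESeq2 called 0, 5 and 0, and edgeR with the replicate block 0, 13 and 3, beside 0.187%, 6.83% and 0.419% of all genes. The genes named next were picked from those called with the block, after their values were seen. NEFL and NEFM, the light and medium neurofilament chains, were higher with ML210 in the label SK-N-BE(2): NEFL was at 80.6, 65.6 and 44.8 CPM against 50.2, 43.5 and 29.8 CPM, and NEFM at 29.5, 24.6 and 11.9 CPM against 10.1, 10.9 and 6.63 CPM. With the block the log2 differences were 0.62 (SE 0.047, adjusted p = 4.33e-05) and 1.20 (SE 0.111, adjusted p = 0.00058) in edgeR, and DESeq2 called both (adjusted p = 0.0451 and 0.00218). In the label SK-N-AS, where both stand far higher, NEFL was at 716, 835 and 813 CPM with ML210 against 716, 801 and 808 CPM, and NEFM at 630, 698 and 682 CPM against 600, 755 and 644 CPM. The difference of responses was called for both with the block, at 0.598 for NEFL (adjusted p = 0.00462) and 1.19 for NEFM (adjusted p = 0.0198).

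The B-type lamins went opposite to LMNA in the label SK-N-BE(2). LMNB1 was at 202, 207 and 233 CPM with ML210 against 258, 237 and 246 CPM, and LMNB2 at 361, 379 and 419 CPM against 474, 439 and 449 CPM, each lower than every control library. With the replicate block the log2 differences were -0.21 (SE 0.0539, adjusted p = 0.0383) for LMNB1 and -0.23 (SE 0.0559, adjusted p = 0.0275) for LMNB2 in edgeR. TMPO, a lamin-binding protein, gave -0.28 (adjusted p = 0.0242). CDK1, the mitotic kinase that takes lamina and vimentin filaments apart, was at 83.8, 79.7 and 97.3 CPM against 118, 107 and 103 CPM (-0.33, adjusted p = 0.0148 with the block). PAK1, a kinase that phosphorylates vimentin, was at 22.8, 24.2 and 23 CPM against 37.8, 34.0 and 28.3 CPM (-0.51, adjusted p = 0.00625 with the block). CLDN4, the most abundant of the epithelial markers, was higher by 0.68 (adjusted p = 0.00771 with the block), whereas KRT8 was lower. DESeq2 called LMNB2, CDK1 and CLDN4 but not LMNB1 (adjusted p = 0.106), TMPO (0.0899) or PAK1 (0.557). With ML210 in the label SK-N-AS, LMNB1, LMNB2, TMPO and CDK1 each lay below every control library, whereas PAK1 and CLDN4 did not. None was called there. LMNB1 was at 226, 209 and 206 CPM against 242, 235 and 227 CPM, and LMNB2 at 396, 387 and 372 CPM against 429, 439 and 403 CPM. The difference of responses was -0.07 for LMNB1 (adjusted p = 0.92 in edgeR) and -0.09 for LMNB2 (adjusted p = 0.872). What part the lower CDK1 or the higher CLDN4 had in the LMNA, SYNM and KRT8 values was not tested.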

How the data were processed

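The deposited values were counts per gene, not normalized. FastQC, Trimmomatic 1.4, HISAT2 2.2.1, featureCounts 2.0.5 and the build GRCh38 are named in the submitters' processing notes. Not given in the sources used here are the annotation, the strand setting and the treatment of multi-mapping reads. Symbols came from a table of gene names for 61399 of 61552 identifiers and from GENCODE release 29 for 145 more.

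Counts were tested in R 4.3.3 with edgeR 4.0.16: filterByExpr by group (20304 genes kept), TMM scaling, 1 fit of all 12 libraries on their groups, which leaves 8 residual degrees of freedom, and the robust quasi-likelihood test, two-sided. P-values were adjusted by Benjamini-Hochberg over every gene tested, and 0.05 was the threshold. Unless another tool is named, adjusted p-values are from edgeR. SE is the log2 difference over the square root of F. CPM use TMM-scaled totals, and RPKM divide them by the length of the principal GENCODE transcript. The procedure was tested on simulated data.

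Alternatives were DESeq2 1.42.0, library totals as the scale, no filter, a replicate block within each line label, only the libraries compared, leaving out each library, adding pseudogene reads, and batch 1 alone for the label SK-N-AS. The length of all exons, and batch 1 alone for PKP2, KRT16 and PRRX1, were added after the data were seen. The block treats the control and ML210 libraries of a batch label as a pair. In the label SK-N-AS the correlations bear this out for batch 1 only. Deviations from group means of same-batch control and ML210 libraries correlated at 0.357, 0.0677 and 0.121 labelled SK-N-AS and 0.0957, 0.12 and 0.169 labelled SK-N-BE(2), and those of different batches from -0.269 to 0.189 and from -0.1 to -0.00693.

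The 8 genes and the 12 lists were chosen with earlier results of these data known. From each list the text names up to 3 genes with the smallest adjusted p between the controls and a mean of at least 1 CPM, and others as stated. The 40 and 69 trace genes were selected by level, as described. Counting error limits KRT8, KRT18 and KRT80 most in the label SK-N-AS, with 270, 272 and 311 reads over its controls. Some items were left out of the text and are not reported here.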

Additional observations from a re-analysis of the deposited data

How the results depend on the processing

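Between the controls, VIM, NES, KRT8, KRT18, KRT80, KRT19 and LMNA kept their direction and their call under every alternative run, including each left-out library. Under leave-one-out the log2 difference lay from 5.71 to 6.49 for KRT8 and from 5.84 to 6.63 for KRT18, and both moved more with batch 1 alone for the label SK-N-AS and with pseudogene reads added (values given above). For ML210 in the label SK-N-BE(2), 0 of the 8 genes were called, 3 with the replicate block, 1 with DESeq2 and 0 to 1 when a library was left out. The block changed no other call with ML210 or in the difference of responses, and between the controls it changed that of SYNM.

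Small differences that were never called changed sign. For ML210 labelled SK-N-AS, VIM was -0.016 with batch 1 alone and -0.062 to 0.12 when a library was left out. KRT8 was 0.0066 with pseudogene reads added, 0.25 with batch 1 alone and -0.70 to 0.078 when a library was left out, KRT18 -0.77 to 0.18 and NES -0.17 to 0.17. Labelled SK-N-BE(2), VIM was -0.0022 without the filter and -0.067 to 0.084 when a library was left out, KRT18 -0.26 to 0.046 and KRT80 -0.50 to 0.15. In the difference of responses VIM was 0.031 with batch 1 alone and -0.13 to 0.077 when a library was left out, KRT8 -0.59 to 0.18, KRT18 -0.27 to 0.68, KRT19 -0.29 to 0.23 and NES -0.19 to 0.15. The cause was not tested.

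The counts over all genes that serve as background also moved. For ML210 labelled SK-N-BE(2), 279 genes were called, 1386 with the block, 737 by DESeq2, 556 without the filter, 51 with only the libraries compared and 27 with batch 1 alone for the other label. Labelled SK-N-AS, 6 were called and 38, 43, 33, 21 and 0 in that order, and in the difference of responses 1 was called, 85 with the block, 41 by DESeq2, 24 without the filter and 0 with batch 1 alone.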
